A study of Mus musculus with 16 samples.

Results

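The synaptic vesicle release machinery is described here by 35 genes that were listed by symbol and looked up in the expression table of a bulk RNA sequencing series. All 35 were found among the 26466 genes of that table, and all 35 passed the filter on low values. Its 16 libraries come from mouse glioblastoma models named Type 1 and Type 2, and every tumour was transplanted. In each model some tumours are labelled TAM depleted, where TAMs are tumour-associated macrophages, and the rest Control. Type 1 has 5 Control and 3 TAM depleted libraries, and Type 2 has 4 of either. The labels state no allele, cell of origin, host strain, age, depleting agent or time point, and what limits each model cannot be stated from them. The codes of Type 2 Control 4 (T2_NG2Con) and Type 2 TAM depleted 4 (T2_UN2) hold letters where the other libraries have numbers. What these codes mean is not stated. Because no label ties a tumour to an animal or culture, the p-values cover only sample-to-sample spread, which may be technical. Levels are given as normalized counts, which are reads per gene divided by the authors' size factor for each library.

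A neuron releases transmitter by fusing vesicles with its membrane. The SNARE proteins, a vesicle one (synaptobrevin, the Vamp genes) and a pair on the target membrane (syntaxin 1 and SNAP-25), zip together and pull the membranes into contact. Complexins hold the assembled complex and synaptotagmins trigger fusion when calcium enters. Rab3, RIM, Munc13, CAPS, Bassoon and Piccolo dock and prime vesicles at the active zone, synapsins tether the reserve pool, and dynamin, amphiphysin, endophilin and synaptojanin retrieve the membrane afterwards. In brain tissue these transcripts are made mainly by neurons and by cells with regulated secretion, such as neuroendocrine cells. In bulk tissue, fewer cells of a type and less RNA per cell cannot be told apart.

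Because most of the 35 genes moved together in the results below, their promoters were searched for motifs of factors tied to neuronal or general promoters. RefSeq promoter windows (GRCm38.p6, 300 bases around each start site, 250 before and 50 after) matched 28 of the 35 by symbol. Snap25, Vamp2, Syt4, Doc2a, Rims2, Syngr3 and Syn3 had no entry. Motifs were spelled out and searched on both strands, and a gene counted once if any of its windows held a match. The left arm of RE1, the element bound by the neuronal gene repressor REST, was written as TTCAGCACC and was in 2 of the 28 (7.14%) against 0.433% of 27025 genes with a window. The right arm, GGACAGCGC, was in 1 of the 28 (3.57%) against 0.477%. The cyclic AMP response element TGACGTCA was in 2 of the 28 (7.14%) against 2.03%, the palindromic NRF1 motif in 1 of the 28 (3.57%) against 1.07%, the GC box GGGCGG in 21 of the 28 (75%) against 38.2% and the TATA box TATAAA in 1 of the 28 (3.57%) against 15.67%. The motifs did not overlap one another in the windows shown. The 4 windows that hold a match to an RE1 arm, the cyclic AMP element or NRF1 are printed from 5′ to 3′, with those matches in capitals. In Syn1 the capitals are the RE1 left arm and then the cyclic AMP element, in Unc13a the right and then the left RE1 arm (both on the opposite strand), in Sh3gl2 the cyclic AMP element and in Bsn the NRF1 motif at 2 places.
Syn1 (chrX:20920869-20921168, minus strand): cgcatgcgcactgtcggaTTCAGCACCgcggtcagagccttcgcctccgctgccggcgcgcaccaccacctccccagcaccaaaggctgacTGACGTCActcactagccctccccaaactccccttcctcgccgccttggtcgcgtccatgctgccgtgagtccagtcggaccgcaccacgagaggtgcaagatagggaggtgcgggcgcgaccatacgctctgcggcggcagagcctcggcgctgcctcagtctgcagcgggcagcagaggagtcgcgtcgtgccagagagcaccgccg
Unc13a (chr8:71671708-71672007, minus strand): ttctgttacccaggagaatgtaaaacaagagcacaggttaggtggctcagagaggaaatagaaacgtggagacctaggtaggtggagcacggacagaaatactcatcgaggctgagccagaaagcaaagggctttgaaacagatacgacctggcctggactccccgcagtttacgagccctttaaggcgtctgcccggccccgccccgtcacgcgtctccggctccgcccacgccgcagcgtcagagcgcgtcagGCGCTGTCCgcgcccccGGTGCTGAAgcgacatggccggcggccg
Sh3gl2 (chr4:85205206-85205505, plus strand): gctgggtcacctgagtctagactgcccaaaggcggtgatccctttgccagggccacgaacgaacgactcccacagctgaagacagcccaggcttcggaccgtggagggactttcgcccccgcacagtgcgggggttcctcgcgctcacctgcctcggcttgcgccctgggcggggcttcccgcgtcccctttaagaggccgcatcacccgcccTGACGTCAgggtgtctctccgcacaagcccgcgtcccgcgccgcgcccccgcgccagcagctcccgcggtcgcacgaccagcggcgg
Bsn (chr9:108190334-108190633, minus strand): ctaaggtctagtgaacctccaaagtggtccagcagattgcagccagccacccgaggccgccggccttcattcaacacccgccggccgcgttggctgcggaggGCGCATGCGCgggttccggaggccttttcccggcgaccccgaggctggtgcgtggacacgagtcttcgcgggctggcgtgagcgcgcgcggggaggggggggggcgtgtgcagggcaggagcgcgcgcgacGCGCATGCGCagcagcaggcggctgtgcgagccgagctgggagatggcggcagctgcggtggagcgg
These matches are letters in a window, and no binding was measured.

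The libraries differed in depth and background. Recovered reads ran from 4.21 to 18.3 mega-reads (M) per library. Reads in 974 olfactory and vomeronasal receptor genes, which a brain tumour is not known to use, separated 9 high-background libraries (2666 to 8479.7 per M reads) from 7 low-background ones (94.98 to 779 per M). All 5 Type 1 Control libraries were high-background and all 3 Type 1 TAM depleted ones low-background, so background and depletion cannot be told apart in Type 1. High-background libraries held 4.21 to 9.16 M reads and low-background ones 13.1 to 18.3 M. In Type 2 the sets were balanced: Control 1 and 3 and TAM depleted 3 and 4 were high-background. The macrophage receptor gene Csf1r stood at 697 ± 431 normalized counts in Type 2 Control and 291 ± 122 in Type 2 TAM depleted tumours (SD, n = 4 each; limma-trend log2 fold change -1.10, SE 0.45, adjusted p = 0.194). In Type 1 it stood at 253 ± 98.1 (SD, n = 5) and 180.4 ± 57.6 (SD, n = 3; limma-trend log2 fold change -0.46, SE 0.46, adjusted p = 0.478). Of 15 macrophage and microglia markers 15 were lower after depletion in Type 2, 3 of them past the threshold, and 13 in Type 1, 0 past the threshold. No marker of neurons, astrocytes, oligodendrocytes, oligodendrocyte precursors or macrophages was at 0 in any library.

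**Figure D1:**
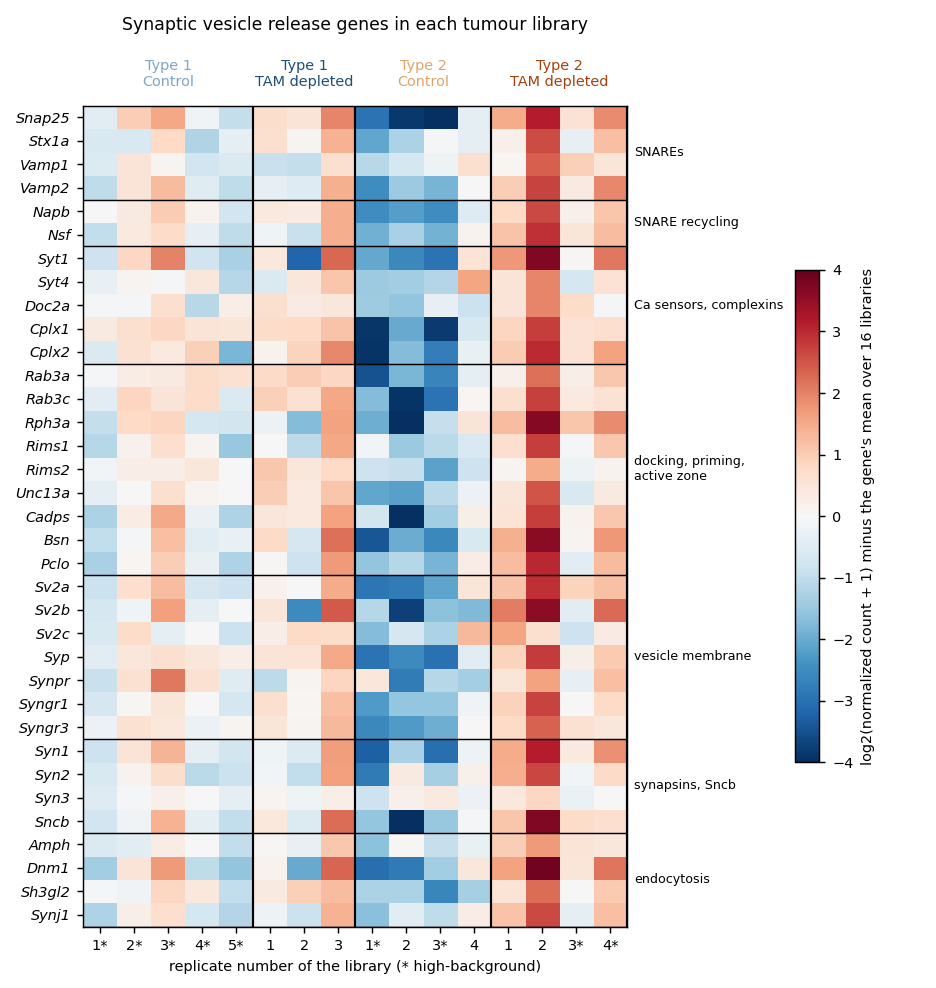
Each row is 1 of the 35 genes and each column 1 library, grouped by tumour kind and treatment. Colour gives log2(normalized count + 1) minus the gene's mean over the 16 libraries, and asterisks mark high-background libraries. Type 2 Control 1 to 3 are low for most genes, Type 2 TAM depleted 2 is the highest of all 16 for 33 of the 35, and Syn3 changes little.

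Release genes were higher in Type 2 TAM depleted than in Type 2 Control tumours. This comparison asks which transcripts differ in that tumour kind when TAMs are depleted. Of the 35 genes 23 rose and 0 fell past a limma-trend adjusted p of 0.05, where 2.37% of 26463 genes tested rose and 1.24% fell. At an unadjusted p under 0.05 there were 32, where 9.81% of genes tested were higher at that level. All 35 fold changes were above 0, against 40.6% of genes tested, except that Syt4 and Sv2c turned below 0 when libraries were weighted by quality. The median log2 fold change was 2.68, against -0.21 over all genes tested, with Snap25 at the top (4.58) and Syn3 at the bottom (0.37). In 23 of the 35 every depleted library lay above every control, against 3.86% of genes tested. Log2 fold changes are on the scale of the normalized count plus 1. The mean log2 level of the 35 genes was 7.11, 7.197, 7.36 and 8.999 in Control 1 to 4 and 10.1, 11.8, 9.31 and 10.2 in TAM depleted 1 to 4. Control 4 was therefore closer to the depleted libraries than to the other controls, and TAM depleted 2 stood above the rest.

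Among the SNAREs, Snap25 and Vamp2 rose, while Stx1a and Vamp1 did not pass. Snap25 (chr2:136713453-136782428, GRCm38), the SNAP-25 protein of the target membrane, had 207, 109, 96.2 and 1253 in Type 2 Control 1 to 4 and 4529, 14106, 2372 and 5992 in Type 2 TAM depleted 1 to 4. Control 4 stood far above the other controls, and all 4 depleted libraries lay above it (limma-trend log2 fold change 4.58, SE 0.75, adjusted p = 0.00932). Vamp2 (chr11:69088490-69092384), the main vesicle SNARE of the forebrain, had 318, 656, 494 and 1749 in Type 2 Control 1 to 4 and 3502, 11570.2, 2289.9 and 6799 in Type 2 TAM depleted 1 to 4. The groups did not overlap here either (limma-trend log2 fold change 2.94, SE 0.65, adjusted p = 0.0242). Stx1a (chr5:135023482-135051100), syntaxin 1A, had 35.7, 64.0, 147 and 117 in Type 2 Control 1 to 4 and 179, 949.5, 122 and 357 in Type 2 TAM depleted 1 to 4, so Control 3 lay above TAM depleted 3 (limma-trend log2 fold change 1.87, SE 0.59, adjusted p = 0.0891). Vamp1 (chr6:125215551-125245964), the synaptobrevin prominent in spinal cord and brainstem neurons, had 139, 185, 260.0 and 473 in Type 2 Control 1 to 4 and 319.7, 1577, 590.0 and 426 in Type 2 TAM depleted 1 to 4. Its groups overlapped, with Control 4 above TAM depleted 1 and 4 (limma-trend log2 fold change 1.33, SE 0.51, adjusted p = 0.166). The proteins that take spent SNARE complexes apart rose: Napb, beta-SNAP, had a log2 fold change of 3.11 (limma-trend adjusted p = 0.0107) and the ATPase Nsf 2.68 (adjusted p = 0.0275).

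Both complexins rose, and the synaptotagmins Syt1 and Syt4 did not pass. Cplx1 (chr5:108518554-108550024), complexin 1, had 39.3, 148, 41.8 and 386 in Type 2 Control 1 to 4 and 1087, 4082, 908 and 957 in Type 2 TAM depleted 1 to 4, with the smallest p of the 35 genes (limma-trend log2 fold change 3.81, SE 0.60, adjusted p = 0.00917). Every depleted library exceeded every control, and TAM depleted 2 stood far above the other 3 depleted libraries. Complexin 2, Cplx2, averaged 576 ± 583 in controls and 6294 ± 5114 after depletion (SD, n = 4 each; limma-trend log2 fold change 3.73, SE 0.74, adjusted p = 0.0176). Syt1 (chr10:108497650-109010982), the fast calcium sensor of forebrain synapses, had 300.3, 209, 160.3 and 1835 in Type 2 Control 1 to 4 and 4177, 16187, 1308 and 5464 in Type 2 TAM depleted 1 to 4. The fold was large but Control 4 lay above TAM depleted 3, and the gene did not pass (limma-trend log2 fold change 3.66, SE 1.07, adjusted p = 0.0673, 95% interval 1.40 to 5.93). Syt4, an atypical synaptotagmin, had 132, 136, 158 and 1067 in Type 2 Control 1 to 4 and 517, 1403, 222 and 543 in Type 2 TAM depleted 1 to 4. Its highest control, Control 4, exceeded 3 of the 4 depleted libraries (limma-trend log2 fold change 1.21, SE 0.64, adjusted p = 0.342). The opposite-strand gene Gm26658 overlaps 14.5% of the Syt4 exon bases. Doc2a, a high-affinity calcium sensor, rose by a log2 fold change of 1.82 (limma-trend adjusted p = 0.0389). Of its exon bases 39.4% overlap the opposite-strand gene Ino80e, and the library kit does not mark strand, so reads of the pair cannot be told apart.

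In the docking, priming and active zone group 6 of 9 genes rose: Bsn, Rph3a, Rab3c, Rab3a, Unc13a and Rims2. Bsn (chr9:108096022-108190384), the giant scaffold Bassoon, had 122, 333, 218 and 849.9 in Type 2 Control 1 to 4 and 3487, 15867, 1412 and 4335 in Type 2 TAM depleted 1 to 4, with no overlap (limma-trend log2 fold change 3.86, SE 0.74, adjusted p = 0.0154). Rab3a, the vesicle GTPase (chr8:70754679-70758677), had 75.1, 241, 135 and 649.9 in Type 2 Control 1 to 4 and 990.4, 3916, 1033 and 1805 in Type 2 TAM depleted 1 to 4. Its depleted libraries all exceeded Control 4, the highest control (limma-trend log2 fold change 3.03, SE 0.53, adjusted p = 0.0107). The others that rose were Rph3a, the Rab3 effector rabphilin (3.68), the GTPase Rab3c (3.22), the priming factor Munc13-1 encoded by Unc13a (2.08) and the scaffold Rims2 (1.57), all as log2 fold changes. Cadps, the CAPS priming protein (2.64, adjusted p = 0.0815), Pclo, Piccolo (2.36, adjusted p = 0.076), and Rims1 (1.94, adjusted p = 0.102) did not pass by limma-trend.

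Vesicle membrane proteins rose in 5 of 7 cases. Sv2b (chr7:75114894-75309262), a vesicle glycoprotein, had 204, 32.8, 145 and 134 in Type 2 Control 1 to 4 and 1882, 5434, 335 and 2170.1 in Type 2 TAM depleted 1 to 4. The lowest depleted library was still above the highest control, although the depleted libraries spanned 16.2-fold (limma-trend log2 fold change 3.94, SE 0.94, adjusted p = 0.0311). Syp (chrX:7638471-7653256), synaptophysin, a major vesicle membrane protein, had 75.1, 100.2, 73.0 and 439 in Type 2 Control 1 to 4 and 1096, 4076, 688 and 1231 in Type 2 TAM depleted 1 to 4. Here too the groups were apart (limma-trend log2 fold change 3.47, SE 0.56, adjusted p = 0.00932). The opposite-strand gene Gm14703 overlaps 16.8% of the Syp exon bases. Sv2a (3.37), Syngr3 (2.75) and Syngr1 (2.48), the last 2 of them synaptogyrins, rose as well (log2 fold changes). Sv2c (chr13:95954594-96132577), the paralog typical of basal ganglia, had 164, 348, 229 and 1377 in Type 2 Control 1 to 4 and 1669, 856, 308 and 703 in Type 2 TAM depleted 1 to 4. Control 4 exceeded 3 of the 4 depleted libraries, and the gene did not pass (limma-trend log2 fold change 1.02, SE 0.58, adjusted p = 0.376). Synpr, synaptoporin, had a log2 fold change of 1.96 (limma-trend adjusted p = 0.129).

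The synapsins separated. Syn1 (chrX:20860511-20921004), which tethers vesicles to actin and whose promoter is printed above, had 100.1, 396, 119 and 831 in Type 2 Control 1 to 4 and 2710.1, 8607, 1269.5 and 3462 in Type 2 TAM depleted 1 to 4, with no overlap between groups (limma-trend log2 fold change 3.66, SE 0.73, adjusted p = 0.0176). Syn2 had a log2 fold change of 2.10 (limma-trend adjusted p = 0.125). Syn3 (chr10:86055125-86498896) had 125, 261, 294 and 189 in Type 2 Control 1 to 4 and 303, 402, 187 and 225 in Type 2 TAM depleted 1 to 4. Control 3 was above 2 of the depleted libraries, and the difference of 0.37 had a 95% interval of -0.28 to 1.02 (limma-trend adjusted p = 0.555). The gene Timp3, on the opposite strand, overlaps 14.1% of the Syn3 exon bases. Sncb, beta-synuclein, rose by 3.42 (adjusted p = 0.0377), with 4.45 normalized counts in Control 2 and 1417 in TAM depleted 2. Of the membrane retrieval genes Dnm1, neuronal dynamin (3.72), Sh3gl2, endophilin A1 (2.58), and Amph, amphiphysin (1.62), rose, and Synj1, synaptojanin, did not pass (1.85, limma-trend adjusted p = 0.119; all log2 fold changes).

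**Figure D2:**
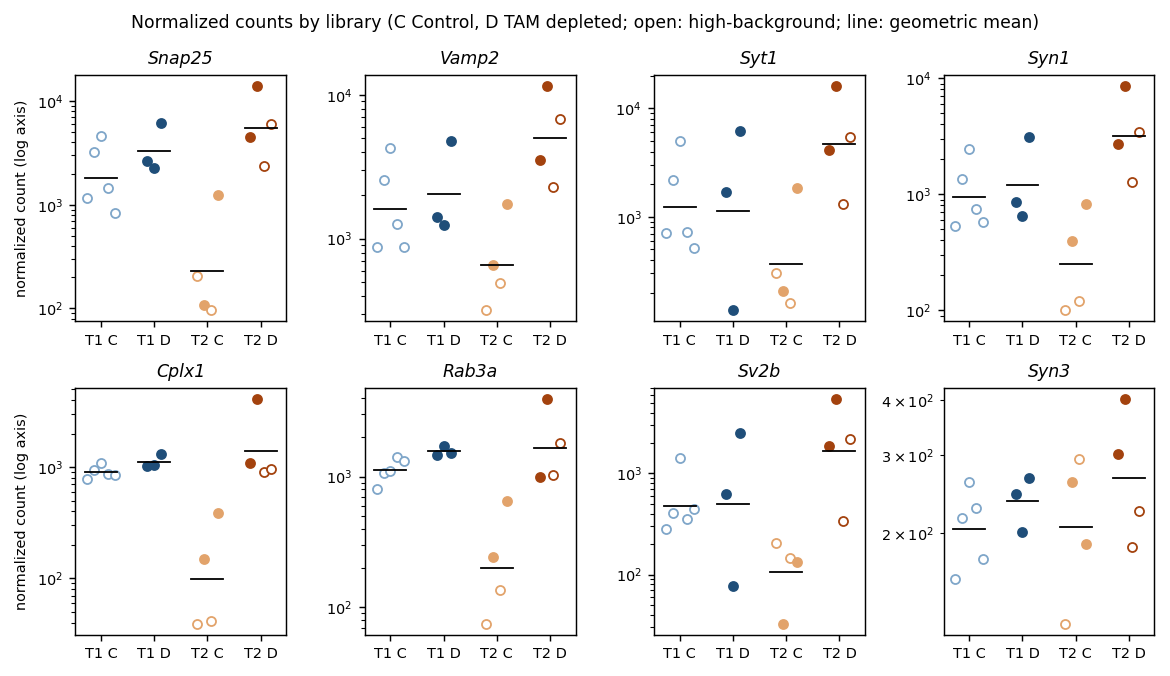
Points are single libraries of 8 release genes on log axes of normalized count, for Type 1 (T1) and Type 2 (T2) Control (C) and TAM depleted (D) tumours. Open points are high-background libraries and lines geometric means. Cplx1 and Rab3a are tight in Type 1 and low in Type 2 Control, Syt1 and Sv2b spread widely, and the Syn3 groups overlap.

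Markers of neurons moved with the release genes. Of 15 neuron markers that are not release genes, 15 were higher in Type 2 TAM depleted tumours and 10 rose (median log2 fold change 3.49), led by Hpca (5.15), Celf4 (3.58), the nuclear protein gene Rbfox3 (3.30) and Thy1 (2.95). Their summed level ran from 3085 to 13885 normalized counts in Type 2 Control and from 23928 to 94993 in TAM depleted libraries. The mean log2 level of the 35 genes minus that of the neuron markers was 0.37, 1.23, 0.86 and 0.38 in Control 1 to 4 and -0.04, -0.17, -0.20 and -0.01 in TAM depleted 1 to 4. Release genes were thus higher relative to neuron markers in the controls than in the depleted libraries, with no overlap. The part of neuron content in the difference was not tested. Of 10 neuroendocrine markers 5 rose, among them the granule proteins Chga (3.34), Scg5 (2.95), Chgb (3.68) and Scg3 (2.48), and their summed level was 586 to 2230.2 in controls and 4308 to 12998 after depletion. Glial markers moved too: 9 of 10 astrocyte markers were above 0 with a median of 1.24, and 1 passed (Aqp4, 2.04). All 10 oligodendrocyte markers were above 0 with a median of 1.12, and 0 passed. Of 10 oligodendrocyte precursor markers 7 were below 0 (median -0.53) and 1 fell. Of 10 proliferation markers 9 were below 0 (median -0.91) and 0 passed. Among all genes tested 40.6% were above 0 (median -0.21), so 7 of 10 below 0 is near the share of all genes. In the high-background libraries the medians were -0.05 for precursor and -0.08 for proliferation markers. In the low-background ones they were -1.03 and -1.64. The part of these cell types in the release genes was not tested.

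**Figure D3:**
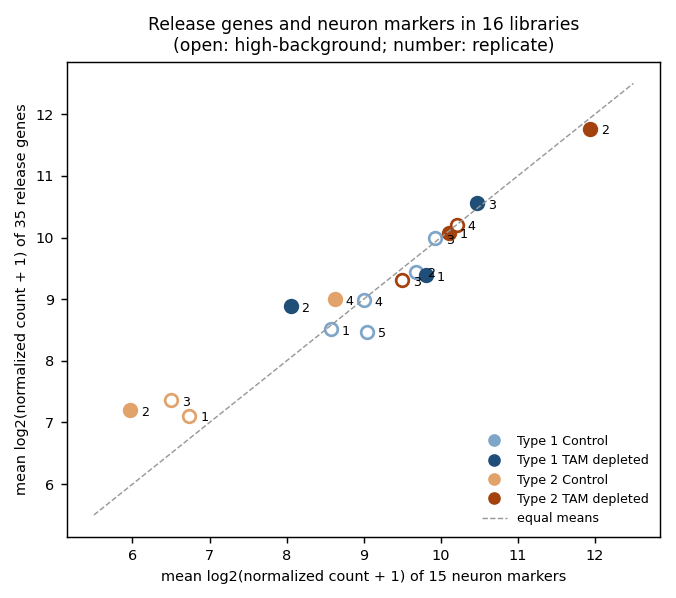
Each point is 1 of the 16 libraries, with the mean log2(normalized count + 1) of 15 neuron markers on the x axis and of the 35 release genes on the y axis, and its replicate number beside it. Open points are high-background libraries and the dashed line marks equal means. The Type 2 Control libraries (by 0.37 to 1.23) and Type 1 TAM depleted 2 (by 0.83) lie farthest above the line.

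Other genes of the vesicle cycle were higher too. Of 48 further release genes 47 were measured, and 16 rose and 0 fell in Type 2 (median log2 fold change 1.45, 45 of 47 above 0). The smallest p were those of Syt7, a calcium sensor of slow release (3.06), Snap91, the clathrin adaptor AP180 (2.43), and the active zone genes Rims4 (2.44) and Ppfia3 (2.04). Of 7 vesicular transporters 1 rose, Slc17a7, which loads glutamate (5.05). Of 29 genes listed as general membrane trafficking genes, 1 rose (Snap47, 2.28) and 1 fell (Vamp5, -1.84), with a median of 0.17. That is near the shares of all genes tested, 2.37% and 1.24%. Whether every gene of this list is used by all cell types was not tested. In 9 pairs of a release gene and a paralog, 0 paralogs passed by limma-trend. Snap23, the general counterpart of Snap25, stood at 249 ± 75.7 normalized counts in controls and 230.4 ± 28.0 after depletion (SD, n = 4 each; limma-trend log2 fold change -0.07, SE 0.24, adjusted p = 0.895). The lowest paralog fold changes were those of Unc13d (-1.72) and Syngr2 (-1.16), with adjusted p of 0.121 and 0.0974. The part of the depleted macrophages in the changes of the paralogs and trafficking genes was not tested.

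**Figure D4:**
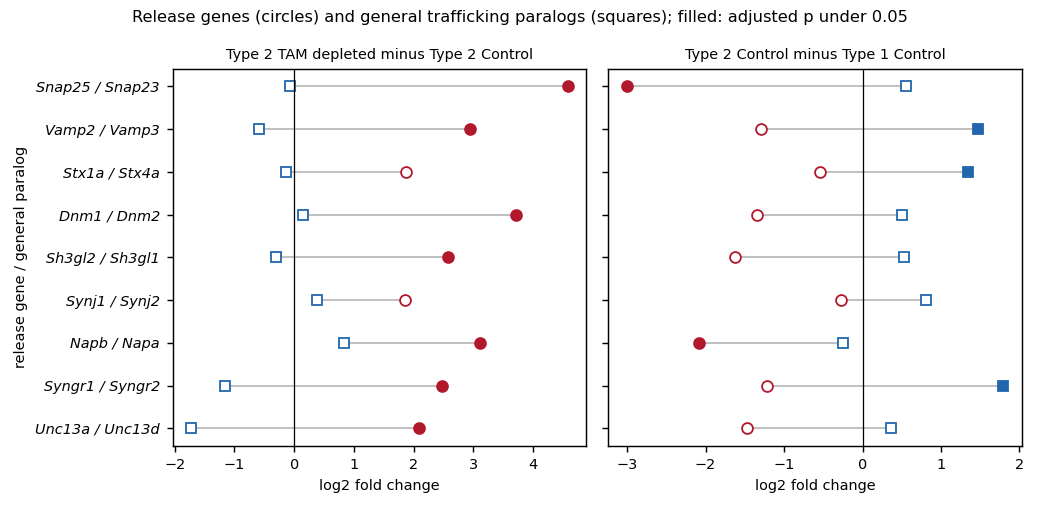
The x axes give log2 fold changes of 9 release genes (circles) and a paralog of each (squares), for Type 2 depletion on the left and Type 2 against Type 1 controls on the right. Filled symbols passed a limma-trend adjusted p of 0.05. On the left every circle lies to the right of its square. On the right every circle lies to the left of it.

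The Type 2 difference was present in both background sets, and the number of calls depended on single libraries. Within the high-background libraries (TAM depleted 3 and 4 against Control 1 and 3) the median log2 fold change of the 35 genes was 2.41 and 16 passed, where 441 of 26463 genes rose. Within the low-background ones (TAM depleted 1 and 2 against Control 2 and 4) it was 2.71. In that set 29 of the 35 had an unadjusted p under 0.05, where 3669 of 26463 genes tested did in either direction. There 0 passed by limma-trend, as did 0 of all 26463 genes, so that count says nothing about the release genes. Neuron markers had medians of 3.08 and 3.96 in the 2 sets. Without Type 2 Control 3 the count fell from 23 to 5, without TAM depleted 2 to 8, without TAM depleted 1 to 14 and without Control 1 to 15. The median stayed between 2.19 and 3.23 whichever library was left out. With library quality weights 2 genes passed, and with the separate table of Type 2 libraries none did (0), while 32 had an unadjusted p under 0.05. Shares of all genes are not given here for the fits without a library, with quality weights or on the Type 2 table. The counts from those fits do not tell a change in the release genes from one in all genes.

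**Figure D5:**
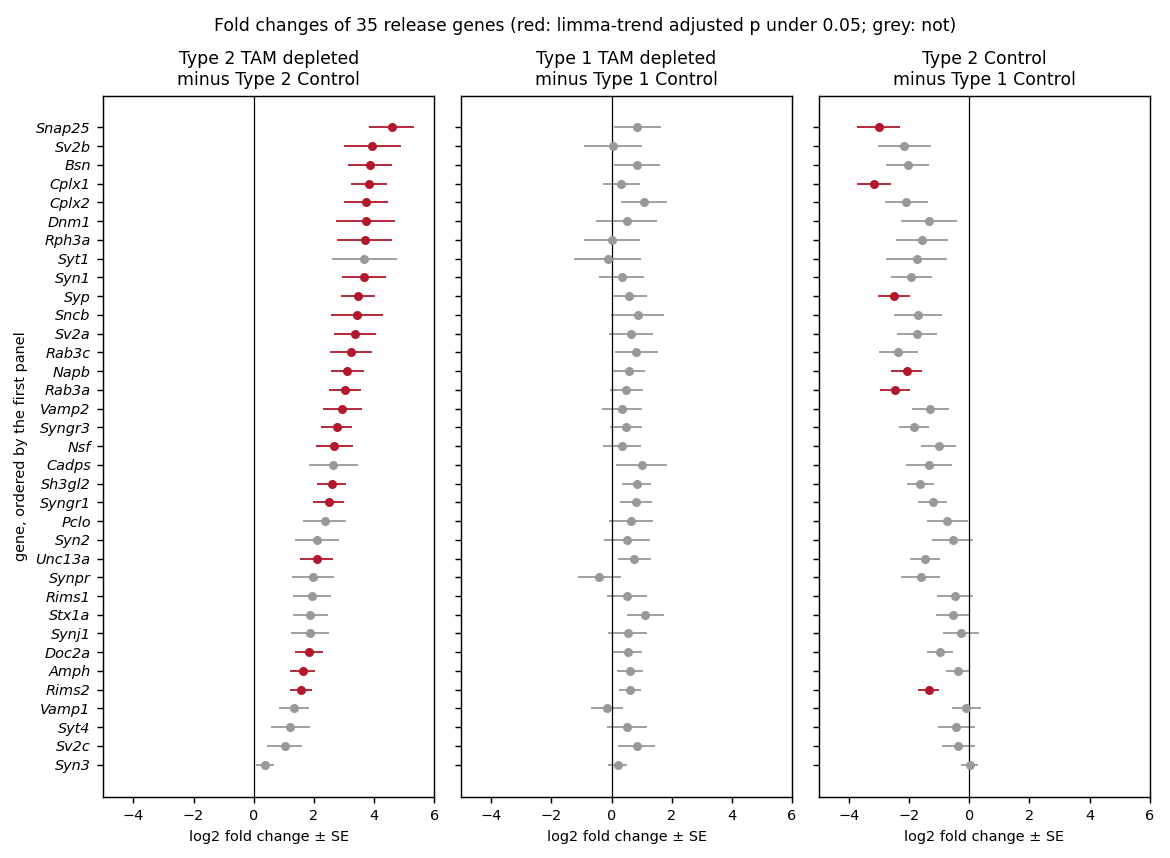
Log2 fold changes with their standard errors for the 35 genes in 3 comparisons, ordered by the first. Red marks a limma-trend adjusted p under 0.05. All 35 points are above 0 in the Type 2 panel, 0 are red in the Type 1 panel, and 6 are red and below 0 between the controls.

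In Type 1 tumours no release gene passed after TAM depletion. Of the 35 genes 0 rose and 0 fell by limma-trend, where 0% of 26463 genes tested passed, and 0 had an unadjusted p under 0.05 (limma-voom also gave 0 and 0), where 5.81% of genes tested were higher and 24.5% lower at that level. The median log2 fold change was 0.54, against -0.06 over all genes tested, and 32 of 35 were above 0 (48.5% of genes tested), but the direction was not stable. With the background set as a block the median was -0.54 and 8 of 35 were above 0, and it was 0.15 with upper quartile scaling and -0.020 with quantile normalization. Each Type 1 group lies in a single background set, so the block effect came from Type 2 libraries and was assumed to hold in Type 1. The same is true of the block in the comparisons below. Snap25 stood at 1162, 3204, 4643, 1452 and 830.0 normalized counts in Type 1 Control 1 to 5 and at 2622, 2281 and 6191 in Type 1 TAM depleted 1 to 3. Control 2 and 3 lay within the range of the depleted libraries (limma-trend log2 fold change 0.86, SE 0.78, adjusted p = 0.433, 95% interval -0.78 to 2.50). The smallest p was that of Stx1a, which stood at 101, 100.5, 269, 66.3 and 117 normalized counts in Type 1 Control 1 to 5 and at 239, 168 and 408 in Type 1 TAM depleted 1 to 3 (limma-trend log2 fold change 1.12, SE 0.61, adjusted p = 0.215, 95% interval -0.17 to 2.41). Control 3 exceeded TAM depleted 1 and 2. Sh3gl2 stood at 535, 511, 1005, 769 and 289 normalized counts in Type 1 Control 1 to 5 and at 733, 1095 and 1345 in Type 1 TAM depleted 1 to 3 (limma-trend log2 fold change 0.84, SE 0.48, adjusted p = 0.234). Rims2 stood at 766, 993, 989.8, 1120.1 and 812 normalized counts in Type 1 Control 1 to 5 and at 1729.7, 1140.1 and 1443 in Type 1 TAM depleted 1 to 3 (limma-trend log2 fold change 0.61, SE 0.38, adjusted p = 0.263), and its depleted libraries all exceeded the controls. Only Rims2 and Rab3a, 2 of the 35, were without overlap, against 10.5% of genes tested. Neuron markers had a median log2 fold change of 0.35 with 0 of 15 past the threshold. Within this comparison no background set holds both groups. Fitted on the Type 1 table alone, 12 of the 35 passed, as did 6699 genes upward and 9682 downward of 29708 tested.

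For the responses themselves, the depletion effect in Type 2 minus that in Type 1 was above 0 in 35 of 35 genes (56% of genes tested), with a median log2 difference of 2.32, but 0 passed by limma-trend (0% of 26463 genes tested). At an unadjusted p under 0.05 there were 20 of 35, where 5.2% of genes tested were higher at that level, and limma-voom gave 0 and 22. Cplx1 had the smallest p (3.49, SE 0.86, adjusted p = 0.433, 95% interval 1.68 to 5.30), followed by Syp (2.88, adjusted p = 0.433) and Snap25 (3.72, adjusted p = 0.455). With the background set as a block the median was 3.22 and 5 of the 35 passed by limma-trend, where 145 of 26463 genes were higher: Cplx1, Syp, Rab3a, Syn1 and Napb. Whether the 2 responses differ thus depended on that setting, which carries the background effect seen in Type 2 over to Type 1.

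Release genes were lower in Type 2 Control than in Type 1 Control tumours, a comparison of the 2 tumour kinds without depletion. Of the 35 genes 6 fell and 0 rose by limma-trend, where 0.816% of genes tested fell and 2.28% rose. The median log2 fold change was -1.47, against -0.23 over all genes tested, and 1 of 35 was above 0 (37.8% of genes tested). At an unadjusted p under 0.05 there were 18 lower, against 5.28% of genes tested. The 6 were Cplx1, Rab3a, Syp, Snap25, Napb and Rims2. Cplx1 stood at 779, 946, 1081, 859 and 844 normalized counts in Type 1 Control 1 to 5 and at 1014, 1051 and 1321 in Type 1 TAM depleted 1 to 3, and the Type 1 Control libraries were all above the highest Type 2 Control library, 386 (limma-trend log2 fold change -3.17, SE 0.57, adjusted p = 0.00419). Rab3a stood at 808, 1056, 1095, 1402 and 1306 normalized counts in Type 1 Control 1 to 5 and at 1455, 1701 and 1526 in Type 1 TAM depleted 1 to 3, again without overlap (limma-trend log2 fold change -2.47, SE 0.50, adjusted p = 0.0102). Syp stood at 429, 815, 919, 801 and 713 normalized counts in Type 1 Control 1 to 5 and at 846, 859.9 and 1701 in Type 1 TAM depleted 1 to 3. Type 2 Control 4, at 439, lay just above Type 1 Control 1 (limma-trend log2 fold change -2.50, SE 0.53, adjusted p = 0.0138). Snap25 (-2.9999, adjusted p = 0.0274), Napb (-2.08, adjusted p = 0.0321) and Rims2 (-1.35, adjusted p = 0.0413) completed the list, as limma-trend log2 fold changes. In 5 of the 35 every Type 2 Control library lay below every Type 1 Control one, against 1.93% of genes tested.

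Neuronal and neuroendocrine markers differed between the controls as well. Of 15 neuron markers 15 were lower in Type 2 Control and 5 fell, among them Rbfox3 (-3.10), Hpca (-4.24), Celf4 (-2.40) and Nefh (-3.18). Their summed level was 12366 to 28754 normalized counts in Type 1 Control and 3085 to 13885 in Type 2 Control. Of 10 neuroendocrine markers 4 fell. Insm1, a zinc finger factor of neuroendocrine and newborn neuronal cells, stood at 1293 ± 812 normalized counts in Type 1 Control (SD, n = 5) and 29.0 ± 26.3 in Type 2 Control (SD, n = 4; limma-trend log2 fold change -5.50, SE 0.73, adjusted p = 0.000431). Neurod1, a neurogenic factor, had -5.29, Chga -2.65 and Scg3 -1.86 (log2 fold changes). Other markers were higher in Type 2 Control: 10 of 10 oligodendrocyte precursor markers were above 0 with 4 past the threshold (median 2.34), 15 of 15 macrophage and microglia markers were above 0 with 0 past it (median 1.202), and 2 of 10 oligodendrocyte markers passed. The part of these markers in the lower release genes was not tested. Of 29 general trafficking genes 23 were above 0 and 6 below (median 0.32), and 3 passed where 2.28% of genes tested rose: Vamp3 (1.47), Stx2 (1.18) and Stx4a (1.34) were higher in Type 2 Control. Among the 47 further release genes 40 were below 0, and the 1 that passed was the ubiquitous synaptogyrin Syngr2, which rose (1.80). Within the high-background libraries (Type 2 Control 1 and 3 against the 5 Type 1 Control libraries) 15 of the 35 fell, with a median of -1.67. In that fit 658 of 26463 genes tested fell. Leaving out Type 1 Control 2, 3 or 4, or Type 2 Control 2, left 3 genes each, and leaving out Type 2 Control 3 left 2. Shares of all genes in the fits that leave out a library are not given here.

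Between the 2 tumour kinds after TAM depletion no release gene passed the threshold. For Type 2 against Type 1 TAM depleted tumours 0 of the 35 genes passed by limma-trend, where 0.185% of genes tested did, and 2 had an unadjusted p under 0.05 (5.07% of genes tested were higher at that level), with 0 and 2 by limma-voom. The median log2 fold change was 0.64, against 0.11 over all genes, and 32 of 35 were above 0 (55.8% of genes tested). All Type 1 TAM depleted libraries were low-background and 2 of the 4 Type 2 ones were not. With the background set as a block the median was 1.14, with 34 of 35 above 0 and 0 past the threshold. In that fit 13 of the 35 had an unadjusted p under 0.05, where 5324 of 26463 genes tested did in either direction. In the low-background libraries alone the median was 1.07, with 0 past the threshold. There 5 of the 35 had an unadjusted p under 0.05, near the share of all genes tested (3563 of 26463). Without the block the 2 with an unadjusted p under 0.05 were Vamp1 (1.39, 95% interval 0.23 to 2.55, limma-trend adjusted p = 0.327) and Rph3a (2.08, 95% interval 0.02 to 4.15, adjusted p = 0.405), followed by Nsf (1.31, adjusted p = 0.447). Rph3a stood at 149.8, 511, 537, 181 and 177 normalized counts in Type 1 Control 1 to 5 and at 249.9, 87.7 and 901 in Type 1 TAM depleted 1 to 3. In Type 2 it had 75.1, 12.2, 155 and 415 in Type 2 Control 1 to 4 and 693, 3726, 627 and 1087 in Type 2 TAM depleted 1 to 4, so the kinds overlapped after depletion. Nsf stood at 694, 1793, 2286, 1088 and 680.3 normalized counts in Type 1 Control 1 to 5 and at 1221, 727 and 3709 in Type 1 TAM depleted 1 to 3 and had 361, 558, 366 and 1489.6 in Type 2 Control 1 to 4 and 2982, 10228, 1897 and 3189.5 in Type 2 TAM depleted 1 to 4. Vamp1 stood at 207, 438, 324, 178 and 200.3 normalized counts in Type 1 Control 1 to 5 and at 162, 154 and 469 in Type 1 TAM depleted 1 to 3. Its values in the 8 Type 1 libraries differed by no more than 3.04-fold, and Type 2 TAM depleted 2 and 3 exceeded all 8. Of 10 neuroendocrine markers 7 were above 0 (median 0.66) and 0 passed, while the lowest of them had log2 fold changes of -3.94 for Insm1 (adjusted p = 0.0741) and -4.03 for Neurod1 (adjusted p = 0.0973).

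Levels of different genes were compared per kilobase of annotated exon. In Type 1 Control the order of means began with Vamp2 (518 ± 387 normalized counts per kb, SD, n = 5), Rab3a (509 ± 104), Cplx1 (412 ± 53.2) and Cplx2 (401 ± 232). It ended with Syn3 (16.9 ± 3.38) and Doc2a (14.7 ± 5.80). These SDs are spreads between libraries and do not test the order of genes within a library. In Type 2 Control Vamp2 was again first (211 ± 169, SD, n = 4), then Rab3a (124 ± 116) and Cplx2 (117 ± 118), and Doc2a was last (7.196 ± 3.14). In Type 2 TAM depleted tumours Vamp2 (1586 ± 1089.5), Cplx2 (1277 ± 1038), Syn1 (1216 ± 969) and Snap25 (994 ± 755) led, and Syn3 was last (22.7 ± 7.75). The lowest value in these libraries was 601 for Vamp2, 528 for Cplx2, 385 for Syn1 and 349 for Snap25. The highest was 3038 for Vamp2, 2797.5 for Cplx2, 2609 for Syn1 and 2077 for Snap25. The order within libraries was not tested.

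The genes also differed in how much they varied between tumours of 1 kind. Over the 8 Type 1 libraries the highest value was 1.69 times the lowest for Syn3, 1.70 times for Cplx1, 2.11 for Rab3a, 2.26 for Rims2 and 2.80 for Unc13a. It was 45.2 times for Syt1, 32.3 for Sv2b, 20.1 for Dnm1 and 13.3 for Cplx2. Of the 6 genes that were lower in Type 2 Control, Cplx1, Rab3a and Rims2 were thus 3 of the 4 least variable in Type 1. A low spread in these libraries also lowers the standard error of that comparison, so the overlap is partly built into the test. Syt1 stood at 705, 2205, 4977, 721 and 512 normalized counts in Type 1 Control 1 to 5 and at 1697, 137 and 6212 in Type 1 TAM depleted 1 to 3. Control 3 and TAM depleted 3 were high and TAM depleted 2 was the lowest of the 8. Vamp2 stood at 874, 2546, 4304, 1260.3 and 873 normalized counts in Type 1 Control 1 to 5 and at 1426, 1236 and 4754 in Type 1 TAM depleted 1 to 3. Syn1 stood at 537, 1366, 2477, 749 and 576 normalized counts in Type 1 Control 1 to 5 and at 864, 653 and 3098 in Type 1 TAM depleted 1 to 3. In both, Control 3 and TAM depleted 3 were again the highest of their groups. Bsn stood at 668, 1272, 3016, 987 and 1070.0 normalized counts in Type 1 Control 1 to 5 and at 2208, 828 and 5977 in Type 1 TAM depleted 1 to 3 and Sv2b at 285, 402, 1419.8, 353 and 444 normalized counts in Type 1 Control 1 to 5 and at 630.1, 77.5 and 2503 in Type 1 TAM depleted 1 to 3. Control 3 was the highest Type 1 Control library for 27 of the 35 genes, TAM depleted 3 the highest depleted one for 31, Type 2 Control 4 the highest control for 26 and Type 2 TAM depleted 2 the highest depleted one for 34. Neuron markers were highest in the same 4 libraries of their groups. The 4 genes with the smallest Type 2 fold changes, Syn3, Sv2c, Syt4 and Vamp1, varied by no more than 4.79-fold over the Type 1 libraries. That bound does not set them apart. Of the genes that rose in Type 2, Cplx1 (1.70), Rab3a (2.11), Syp (3.97) and Napb (4.69), among others, also stayed under it. Sv2b (32.3), Dnm1 (20.1) and Cplx2 (13.3), among others that rose, exceeded it. Syn3 stood at 158, 217, 261, 228 and 175 normalized counts in Type 1 Control 1 to 5 and at 245, 202 and 266 in Type 1 TAM depleted 1 to 3, Syt4 at 293, 385, 351, 490.0 and 164 normalized counts in Type 1 Control 1 to 5 and at 239.8, 498 and 786 in Type 1 TAM depleted 1 to 3 and Sv2c at 364, 919, 424, 549 and 305 normalized counts in Type 1 Control 1 to 5 and at 667, 965 and 926 in Type 1 TAM depleted 1 to 3.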

How the data were processed

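RNA-seq was measured in 16 tumour libraries. TRIzol lysis, miRNeasy Micro columns and the SMART-Seq v4 kit, which does not mark strand, were used per the labels' protocols. Per the submitters' processing notes, STAR 2.7.8a, GRCm38 and DESeq2 were used. The sources used here name no counting tool or annotation. The authors deposited variance-stabilized log2 values in 3 tables, although normalized counts had been assumed when the tests were set. The table of all 16 libraries was used, except where a table of 1 tumour kind is named. The transformation was undone from each table's lowest value (3.74 on the log2 scale for all libraries) to return normalized counts, and whole reads came out in 100% of values (tolerance 0.05 reads).

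Genes with 10 or more normalized counts in at least 3 libraries were tested (26463). Limma-trend (limma 3.58.1, R 4.3.3) was fitted to log2(normalized count + 1) with 4 group means (12 residual degrees of freedom), 2-sided, Benjamini-Hochberg adjusted over all genes tested, threshold 0.05. The fit was tested on simulated counts. Groups and replicate numbers came from the sample titles, and background sets from the widest gap in receptor reads. Libraries of a group differed beyond counting error (chi-square per degree of freedom from 9.07). Members and lists were chosen with earlier results of these data known. Per-library values are given for Snap25, Stx1a, Vamp1, Vamp2, Syt1, Syn1 and Syp, for the 4 largest and 4 smallest Type 2 depletion fold changes, and for the 3 smallest p in each other comparison. Of the other lists, up to 4 genes past the threshold in each direction are named, by p. The paralog pairs, Insm1, Chga and the motifs were singled out after values were seen. Exon lengths and coordinates are those of GENCODE vM21 (GRCm38). Also tried were other pseudocounts (0.5 and 8), other filters (none and 50), upper quartile and quantile scaling, limma-voom on recovered reads, library quality weights, single-kind tables, a replicate block, the background set as a block or alone, and leaving out each library. Reads carry no molecular identifiers.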

Additional observations from a re-analysis of the deposited data

Results flagged for a closer look

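In 105 groups of 4 or 5 libraries, 1 per gene and group, 9 had a library far from the others on the log2 scale by Dixon's ratio at the 95% level. Chance alone gives such a mark in about 1 in 20 groups. Cplx1 stood at 4082 normalized counts in Type 2 TAM depleted 2, where the other 3 depleted libraries ran from 908 to 1086. Rab3c stood at 6132 normalized counts in Type 2 TAM depleted 2, where the other 3 depleted libraries ran from 1211 to 1456. Sv2a stood at 5144 normalized counts in Type 2 TAM depleted 2, where the other 3 depleted libraries ran from 1245 to 1534. Sncb stood at 1417 normalized counts in Type 2 TAM depleted 2, where the other 3 depleted libraries ran from 170.5 to 231. That library was also the highest of its group in neuron markers. Napb stood at 665 in Type 2 Control 4, against 168 to 208 in the other controls. Syt4 stood at 1067 in Type 2 Control 4, against 132 to 158 in the other controls. In Type 2 Control 3 Rims2 was low, at 188, where the other controls had 435 to 462. In Type 2 Control 3 Sh3gl2 was low, at 92.6, where the other controls had 225 to 236. Sv2b stood at 1419.8 in Type 1 Control 3, against 285 to 444 in the other Type 1 Control libraries.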

How the results depend on the processing

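For Type 2 depletion the number of release genes past the threshold went from 23 to 2 with library quality weights, 0 in the low-background libraries alone, 0 with only the Type 2 table (where 32 had an unadjusted p under 0.05), and 12 with a replicate block. With the background set as a block it was 29, where 1493 of 26463 genes rose. In the high-background libraries alone it was 16, where 441 of 26463 rose. It ran from 5 to 26 when 1 library was left out, with the median between 2.19 and 3.23. For Type 1 depletion it went from 0 to 3 with quality weights and to 12 in the Type 1 table alone. Its median of 0.54 turned to -0.020 with quantile normalization and -0.54 with the background set as a block, and ran from 0.16 to 0.89 when 1 library was left out. For the difference of responses the background block gave 5 genes and a median of 3.22, with 0 genes and 1.83 to 2.78 when 1 library was left out. Between the controls the 6 genes became 14 with quantile normalization, 14 with the background block, 15 in the high-background libraries and 3 with the replicate block, and the median was -0.53 with quality weights. Of 26463 genes tested, 744 were lower with the background block and 658 in the high-background libraries, against 216 with neither. A count given without a share of all genes does not tell a shift of these genes from one of all genes. Leaving out 1 library gave 2 to 9 genes between the controls and medians from -1.85 to -1.17. Between the depleted tumours it gave 0 genes and 0.14 to 1.04, and the background block gave 0 genes and 1.14. Upper quartile scaling moved the median of all genes from -0.06 to -0.44 in Type 1 and from -0.21 to -0.41 in Type 2. Single genes that turned were Syt4 (-0.27) and Sv2c (-0.19) in Type 2 depletion with quality weights, Snap23 there in the high-background libraries (0.24) and without 1 library (-0.23 to 0.0745), Rims2 in Type 1 depletion with quantile normalization (-0.054) and the background block (-0.11), and Snap25 there with that block (-0.37), under which 8 of the 35 genes stayed above 0 in Type 1 against 32 without it. The cause was not tested. Of the 23 calls of Type 2 depletion, Cplx1 held in 19 of 21 alternatives and Snap25, Syp, Napb, Rab3a and Sh3gl2 in 18, while Doc2a held in 7. Replicate numbers did not pair the libraries: deviations of same-numbered libraries correlated between -0.675 and 0.495, over 0.1 in 7 of 21 pairs. Doc2a had 4 reads in Type 2 Control 1, the fewest of any release gene, where counting error is large.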

Other observations

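In 1 library some release genes stood at the low end and others near the high end of the Type 1 range. In Type 1 TAM depleted 2, which had the lowest mean of neuron markers of the 8 Type 1 libraries, Syt1 (137 normalized counts), Sv2b (77.5), Rph3a (87.7), Dnm1 (205) and Vamp1 (154) were at their lowest of the 8. In the same library Rab3a (1701) and Sv2c (965) were at their highest of the 8. Cplx1 (1051), Cplx2 (3232), Rims2 (1140.1), Syp (859.9), Sh3gl2 (1095) and Syt4 (498) were among the 3 highest. These 13 genes were picked for their rank in this library, and it is 1 tumour. The 5 lowest are close to an even share of the 35 genes among 8 libraries. The 8 in the top 3, with Rab3a and Sv2c among them, are below such a share. Shares over all genes were not computed, so no parting of the set is shown.

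Type 2 Control 2 had the lowest mean of neuron markers of all 16 libraries. Its values were the lowest of the 4 controls for 9 of the 35 genes, among them Sncb (4.45), Rph3a (12.2), Cadps (32.8), Sv2b (32.8) and Rab3c (59.5). For Syn2 (1082) and Amph (505) it was the highest control. The count of 9 is close to an even share of the 35 genes among 4 controls and shows no division. The share over all genes was not computed, and the genes named were picked by their rank in this library. The opposite-strand gene Timp4 overlaps 1.28% of the Syn2 exon bases.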
